A study of Mus musculus with 64 samples.

Results

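The genes described here are 10 components of the mouse pathway that cuts proteins into peptides and displays them on MHC class I molecules: H2-D1, H2-K1, B2m, Tap1, Tap2, Tapbp, Psmb8, Psmb9, Psmb10 and Psme1. They are named by gene symbol in a list drawn up with earlier results of these data known, and are 10 of the 35534 genes listed in each of the 2 deposited gene tables. All 10 members passed the filter on low values in both tables (at least 10 estimated counts in at least 4 libraries). RNA-seq of whole colon compared vancomycin, a glycopeptide antibiotic that acts on Gram-positive bacteria, with its PBS vehicle in mice with and without a microbiota. The mice were WT Swiss Webster, an outbred stock, aged 8 to 12 weeks and kept under 12 h of light and 12 h of dark. The 64 libraries form 16 groups of 4. The times (ZT5, ZT11, ZT17 and ZT23, in hours after lights on) were crossed with treatment (vancomycin or PBS) in SPF mice, which carry a specific-pathogen-free microbiota, and in GF mice, which are germ-free. Vancomycin mice were injected intraperitoneally with 2.5 mg in 100 µl of PBS, 2 times a day for 3 days with a last injection on day 4, and PBS mice with 100 µl of PBS on the same schedule. GF mice of both treatments were moved from sterile isolators into Tecniplast cages for the treatment, and the labels give no sterility test after the move. The labels do not say whether each library is a separate animal, so p-values measure the spread between libraries.

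MHC class I molecules consist of a polymorphic heavy chain, here H2-D1 or H2-K1, and the invariant light chain B2m (beta-2-microglobulin), and they show peptides from inside the cell to CD8 T cells. The peptides come largely from the proteasome. In its immunoproteasome form, which interferon-gamma induces in many cells and which lymphoid and myeloid cells make constantly, the catalytic subunits Psmb8, Psmb9 and Psmb10 replace Psmb5, Psmb6 and Psmb7, and the Psme1 and Psme2 subunits form a cap that opens the core. Tap1 and Tap2 carry the peptides into the endoplasmic reticulum, where tapasin (Tapbp) holds empty class I molecules beside the transporter. In the intestine the pathway is known to work in epithelium as well as in the immune cells of the wall.

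The promoters of 6 members are printed so that the letters of the 3 members called in SPF colon (H2-D1, Psmb10 and Psme1) can be read beside those of 3 that were not. A RefSeq promoter entry (GRCm38.p6) was found for 9 of the 10 members, all but Tap2. The 250 bases before the start in that entry are given 5′ to 3′ on the gene's strand. Gene positions further below are from another annotation, GENCODE, whose starts can differ. Its starts of H2-D1, Psmb8 and Psme1 lie before the printed windows, which thus fall inside those genes as GENCODE draws them. The submitters' processing notes name a later build, GRCm39, so these coordinates are not those of the authors' alignment. Capitals mark matches, on either strand, to an IRF motif (GAANNGAAA), a GAS motif (TTCNNNGAA) or the kappaB motif. The windows are H2-D1 at chr17:35262844-35263093 on the plus strand, H2-K1 (the first of 2 entries) at chr17:34000348-34000597 on the minus strand, B2m at chr2:122147437-122147686 on the plus strand, Psmb8 at chr17:34197945-34198194 on the plus strand, Psmb10 at chr8:105938393-105938642 on the minus strand and Psme1 at chr14:55578244-55578493 on the plus strand.
H2-D1: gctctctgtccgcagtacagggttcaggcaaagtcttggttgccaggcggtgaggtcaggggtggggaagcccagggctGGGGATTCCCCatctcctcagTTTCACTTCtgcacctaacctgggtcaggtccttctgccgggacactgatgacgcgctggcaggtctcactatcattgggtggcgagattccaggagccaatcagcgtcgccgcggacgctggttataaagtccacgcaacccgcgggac
H2-K1: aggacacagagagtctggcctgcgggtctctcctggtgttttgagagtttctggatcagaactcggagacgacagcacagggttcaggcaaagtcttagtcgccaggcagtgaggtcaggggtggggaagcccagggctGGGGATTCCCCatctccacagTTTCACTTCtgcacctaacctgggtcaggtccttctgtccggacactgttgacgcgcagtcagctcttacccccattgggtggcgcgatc
B2m: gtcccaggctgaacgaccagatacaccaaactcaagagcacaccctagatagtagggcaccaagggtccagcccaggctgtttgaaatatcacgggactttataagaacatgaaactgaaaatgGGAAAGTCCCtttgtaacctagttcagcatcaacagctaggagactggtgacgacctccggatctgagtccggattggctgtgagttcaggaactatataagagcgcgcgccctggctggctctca
Psmb8: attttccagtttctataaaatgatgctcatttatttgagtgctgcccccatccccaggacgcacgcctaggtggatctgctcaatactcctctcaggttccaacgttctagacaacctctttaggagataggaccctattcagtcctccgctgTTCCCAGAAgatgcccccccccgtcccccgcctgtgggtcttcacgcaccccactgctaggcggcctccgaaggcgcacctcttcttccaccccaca
Psmb10: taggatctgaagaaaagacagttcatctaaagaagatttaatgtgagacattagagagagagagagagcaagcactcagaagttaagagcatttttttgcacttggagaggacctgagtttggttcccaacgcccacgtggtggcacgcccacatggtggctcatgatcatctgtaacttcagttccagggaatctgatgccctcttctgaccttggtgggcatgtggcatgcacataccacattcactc
Psme1: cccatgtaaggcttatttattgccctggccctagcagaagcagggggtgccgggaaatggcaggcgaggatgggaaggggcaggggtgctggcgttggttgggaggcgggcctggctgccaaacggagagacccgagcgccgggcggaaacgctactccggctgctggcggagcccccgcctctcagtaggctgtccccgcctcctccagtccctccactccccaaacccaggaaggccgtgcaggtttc

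Both heavy-chain promoters held the same letters in capitals, GGGGATTCCCC followed by TTTCACTTC. In H2-D1 the IRF match began 150 bases before the start, and in H2-K1 90 bases before it. The kappaB motif matched 2 times in each of these promoters, in windows that overlap one another by all but 1 base. B2m had a single kappaB match 126 bases before its start and no match to the IRF motif as written, GAANNGAAA. Its letters gaaactgaaa, shortly before the kappaB match, hold GAA and GAAA with a wider gap than that motif allows. They are therefore not in capitals, and wider gaps were not searched. Psmb8 held a GAS match 97 bases before its start. Psmb10 and Psme1 held no match to these 3 motifs in this window, and Psmb10 had a CACGTG (E-box) match 116 bases before its start. Tap1, Tapbp and Psmb9, whose promoters are not printed, held no match to these 3 motifs either. Of the uncalled members with an entry, those printed are thus the ones with a match. The called H2-D1 held matches too, so the printed set cannot show whether matches go with calls. Of all 32851 promoters of the same length, 6.31% held the IRF motif, 7.02% the GAS motif, 7.25% the kappaB motif and 6.02% the E-box. A match is a description of letters and not of binding.

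Of the 10 members, 7 lie within 1.35 Mb of chromosome 17, between positions 33915899 and 35267499 of GRCm38. B2m is on chromosome 2, Psmb10 on chromosome 8 and Psme1 on chromosome 14. Tap1 and Psmb9 overlap head to head on opposite strands, and Psmb8 begins 496 bases after the end of Tap1. No source used here says whether counting used strand, so reads from the stretch that Tap1 and Psmb9 share cannot be told apart; 4.57% of the 75-base words of Tap1 and 8.22% of those of Psmb9 occur on the opposite strand of the other gene. Shared words within the same strand were 6.15% for H2-D1, mostly with H2-Q7 and H2-Q1, 2.9% for Psme1 with Gm7776, and 1.12% for H2-K1. B2m and Psmb10 shared none in either direction, while 15.8% of the words of Tapbp lay antisense to Gm19412.

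Library totals ran between 10044032 and 13615804 estimated counts in SPF libraries and between 10513966 and 15736087 in GF libraries. No pair of libraries within a group agreed within sampling noise. The labelled tissue was checked with 14 colonocyte and crypt markers, none of them at 0, which summed to between 10500 and 22420 CPM in vancomycin SPF libraries and between 10680 and 22860 CPM in PBS SPF libraries. Summed Y-linked CPM (4 genes) lay between 17.03 and 268.8 in vancomycin GF libraries and between 53.9 and 300.9 in PBS GF libraries, but only between 214.7 and 279.5 in vancomycin SPF libraries and between 209.5 and 280.4 in PBS SPF libraries. The GF libraries thus varied in this quantity far more than the SPF libraries. In GF colon it was also unevenly split between treatments, with a median sum of 73.68 CPM with vancomycin and 227.3 CPM with PBS. The median log2 fold change of the 4 genes there was -1.14 (0 positive), with 0 called and 1 at an unadjusted p under 0.05, beside 3.96% of genes. The GF fits with it as a covariate are given with the GF results.

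In SPF colon, the fitted difference between vancomycin and PBS was positive for all 10 members when averaged over the 4 times, with a median log2 fold change of 0.327 against -0.00403 over all 16938 genes tested. H2-D1, Psmb10 and Psme1 rose (edgeR's quasi-likelihood test, Benjamini-Hochberg adjusted p under 0.05 over all genes, which is what "called" means below). That is 3 of 10 members beside a background of 0.809% of genes called in either direction, and the choice of members was not blind to these data. At an unadjusted p under 0.05, the background was 16.2% of genes and 9 of the 10 members passed. In bulk tissue, more cells of a type and more RNA per cell cannot be told apart. The levels below are CPM (estimated counts scaled to a common library size), with the mean and SD over the 16 libraries of a treatment.

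H2-D1, the D-locus heavy chain, had 1977, 1665, 1670.1 and 1776 CPM in vancomycin SPF libraries at ZT5, against 1817, 1352, 1443 and 1111 CPM in PBS libraries. At ZT11 the vancomycin libraries had 1795, 2453, 1580.2 and 2192 CPM and the PBS libraries 1392, 1289, 1373 and 1349 CPM. The vancomycin libraries were all above the PBS libraries at ZT11, whereas the ranges overlapped at ZT5. At ZT17 the vancomycin libraries had 1659, 2065, 1820 and 1694 CPM and the PBS libraries 1182, 1612, 1534 and 1044 CPM. At ZT23 the vancomycin libraries had 1609, 1507, 1293 and 1428 CPM and the PBS libraries 1318, 1574, 1309 and 1403 CPM. The groups were again apart at ZT17 and lay on top of each other at ZT23. Over the 4 times H2-D1 averaged 1761 ± 293.5 CPM with vancomycin and 1381 ± 192.2 CPM with PBS (SD, n = 16 libraries each), a log2 fold change of 0.34 ± 0.072 (SE), or 1.27-fold (edgeR, adjusted p = 0.0245).

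H2-K1, the K-locus heavy chain, averaged 709 ± 128.8 CPM with vancomycin (lowest 515.3, median 678.5, highest 963) and 571.3 ± 98.9 CPM with PBS (lowest 385.8, median 562, highest 740.1). Its log2 fold change of 0.30 ± 0.085 was of the same size as that of H2-D1 and missed the threshold (edgeR, adjusted p = 0.0790). B2m, the light chain shared by all class I molecules, averaged 556.6 ± 116 CPM with vancomycin (lowest 393.2, median 534.5, highest 832.2) and 448.8 ± 73.2 CPM with PBS (lowest 320.8, median 421.4, highest 583.5). Its log2 fold change was 0.31 ± 0.078 (edgeR, adjusted p = 0.0525). The ranges of both genes overlapped between treatments, with the highest vancomycin library of both at ZT11, replicate 2.

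**Figure D1:**
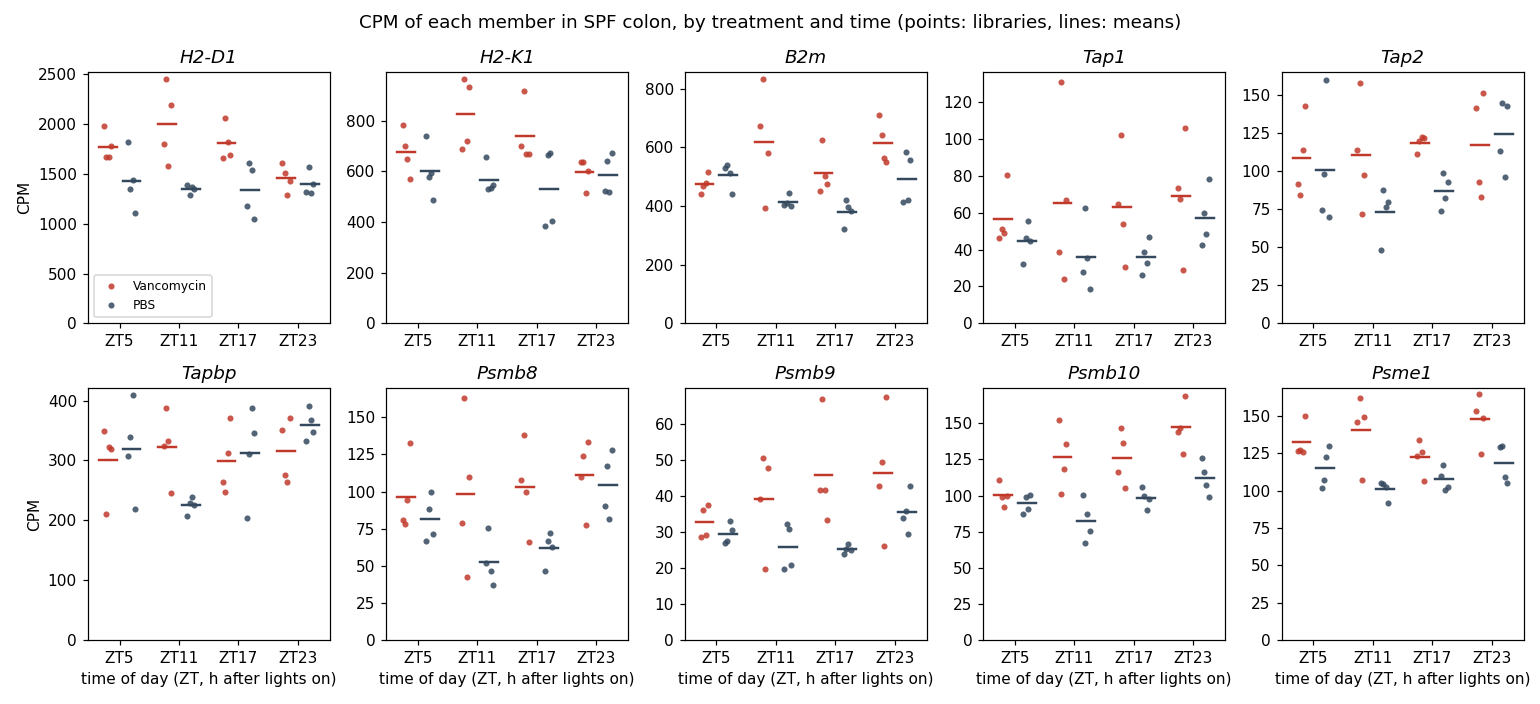
CPM (linear axis from 0) of each of the 10 members in SPF colon at ZT5, ZT11, ZT17 and ZT23, with vancomycin left and PBS right at each time. Points are libraries (n = 4 per group) and short lines are group means. At ZT11 all vancomycin libraries stood above all PBS libraries for H2-D1, H2-K1, Tapbp, Psmb10 and Psme1.

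The transporter chains Tap1 and Tap2 varied more between libraries than the class I chains on the log2 scale. With their loading partner Tapbp, none of the 3 was called. Tap1, the first transporter chain, averaged 63.4 ± 29.9 CPM with vancomycin (lowest 24.3, median 59.5, highest 130.7) and 43.5 ± 15.3 CPM with PBS (lowest 18.4, median 43.5, highest 78.1), with the widest spread on the log2 scale of the 10 members in vancomycin SPF libraries. Its log2 fold change was 0.57 ± 0.212 (edgeR, adjusted p = 0.197). Tap2, the other chain of the transporter, averaged 113.7 ± 25.7 CPM with vancomycin and 96.3 ± 30.3 CPM with PBS, a log2 fold change of 0.27 ± 0.125 (edgeR, adjusted p = 0.292). Tapbp averaged 309.1 ± 52.3 CPM with vancomycin and 303.8 ± 72.4 CPM with PBS, and its log2 fold change of 0.04 ± 0.095 was the smallest of the 10 (95% interval -0.15 to 0.24; edgeR, adjusted p = 0.870).

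Among the immunoproteasome subunits, Psmb10, which supplies the trypsin-like site, had 110.95, 98.98, 91.84 and 99.63 CPM in vancomycin SPF libraries at ZT5 and 87.37, 99.32, 90.91 and 100.48 CPM in PBS libraries. At ZT11 it had 152.1, 101.4, 118.7 and 136 CPM with vancomycin and 100.49, 67.33, 87.18 and 75.44 CPM with PBS. The treatments overlapped at ZT5 and were apart at ZT11, by less than 1 CPM between the nearest libraries. At ZT17 it had 116.3, 147, 136.2 and 105.6 CPM with vancomycin and 106.1, 99.3, 90.1 and 97.7 CPM with PBS. At ZT23 it had 144, 146.7, 129 and 169.1 CPM with vancomycin and 126, 116, 107.4 and 98.6 CPM with PBS. The ZT23 groups were apart, and at ZT17 the lowest vancomycin library lay just under the highest PBS library. Psmb10 averaged 125.2 ± 23 CPM with vancomycin and 96.9 ± 14.3 CPM with PBS, a log2 fold change of 0.37 ± 0.063, or 1.29-fold (edgeR, adjusted p = 0.0084).

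Psmb8, which supplies the chymotrypsin-like site, averaged 102.2 ± 31.3 CPM with vancomycin (lowest 42.4, median 103.6, highest 163.2) and 75.0 ± 25.3 CPM with PBS (lowest 36.8, median 71.7, highest 128). Both its highest and its lowest vancomycin values were from ZT11, replicate 2 and replicate 3. The log2 fold change was 0.49 ± 0.145 (edgeR, adjusted p = 0.0988). Psmb9, which takes the caspase-like position, averaged 41.1 ± 13.3 CPM with vancomycin (lowest 19.6, median 40.4, highest 67.5) and 29.03 ± 5.85 CPM with PBS (lowest 19.7, median 28.5, highest 42.9). Its log2 fold change was 0.50 ± 0.126 (edgeR, adjusted p = 0.0525). The estimates for these 2 subunits were larger than that for Psmb10, with wider standard errors.

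Psme1, the alpha subunit of the proteasome activator cap, had 126.7, 127.3, 125.6 and 150.2 CPM in vancomycin SPF libraries at ZT5 and 102.1, 106.9, 122.3 and 129.7 CPM in PBS libraries. At ZT11 it had 145.7, 161.9, 106.9 and 149.2 CPM with vancomycin and 105.2, 104.6, 102.8 and 92.0 CPM with PBS. The treatments overlapped at ZT5 through the highest PBS library and were apart at ZT11. At ZT17 it had 123.5, 134, 126.2 and 106.2 CPM with vancomycin and 110.03, 117.1, 100.4 and 102.5 CPM with PBS. At ZT23 it had 153.3, 164.9, 124.3 and 148.4 CPM with vancomycin and 128.9, 130.1, 109.1 and 105.5 CPM with PBS. At both of these later times 1 vancomycin library fell among the PBS libraries. Psme1 averaged 135.9 ± 17.9 CPM with vancomycin and 110.6 ± 11.6 CPM with PBS, a log2 fold change of 0.30 ± 0.057, or 1.23-fold (edgeR, adjusted p = 0.0181).

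Taken per kilobase of the longest annotated coding transcript, the class I chains were the most abundant members by a wide step. In vancomycin SPF libraries H2-D1 stood at 838 ± 140 CPM per kb, B2m at 647 ± 135 and H2-K1 at 438 ± 79.6, and in PBS SPF libraries at 657 ± 91.4, 522 ± 85.1 and 353 ± 61.1 CPM per kb. Psme1, Tapbp and Psmb10 followed with 122 ± 16.1, 107 ± 18.1 and 95.5 ± 17.5 CPM per kb with vancomycin, and neighbours among these 3 differed by less than 1 SD. With PBS the same 3 genes stood at 99.5 ± 10.4, 105 ± 25 and 73.9 ± 10.9 CPM per kb. Psmb8 had 62.8 ± 19.2 CPM per kb with vancomycin and 46.1 ± 15.5 with PBS. Tap2, Psmb9 and Tap1 were lowest, at 33 ± 7.47, 30.4 ± 9.85 and 21.5 ± 10.1 CPM per kb with vancomycin and 28 ± 8.81, 21.5 ± 4.33 and 14.7 ± 5.18 with PBS. In both treatments of both tables the 3 class I chains held the top 3 places and Tap1 the last.

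By time of day, the SPF difference was widest in the middle of the series. The members' median log2 fold change of vancomycin over PBS was 0.162 at ZT5, 0.587 at ZT11, 0.44 at ZT17 and 0.179 at ZT23, with 8, 10, 9 and 8 of the 10 positive. The medians of 25 T and NK cell markers at these times were 1.48, 1.73, 0.364 and 0.0213. With their score as a covariate the members' medians were -0.0834 at ZT5, 0.392 at ZT11, 0.429 at ZT17 and 0.043 at ZT23, with 4, 10, 9 and 6 positive, so the direction at ZT5 turned. With a B cell score the ZT5 median was -0.0284 (4 positive), and with a macrophage and dendritic cell score it was 0.00618 (5 positive). No member was called at a single time by edgeR, where the background was 0.0827% of genes at ZT5, 0% at ZT11, 0.319% at ZT17 and 0% at ZT23. At an unadjusted p under 0.05, 1, 9, 6 and 3 members passed at these times, beside 2399, 1670, 1465 and 1243 of 16938 genes. DESeq2 called 4 members at ZT11 (H2-D1, B2m, Psmb10 and Psme1), beside 102 genes in all, and 0 members at each of the other times. The smallest adjusted p at ZT11 was that of Psmb10, with a log2 fold change of 0.62 ± 0.126 (edgeR, adjusted p = 0.0814).

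Separation of the libraries followed the same order of times. All 4 vancomycin libraries lay above all 4 PBS libraries for 0 members at ZT5, 5 at ZT11, 4 at ZT17 (H2-D1, B2m, Tap2 and Psmb9) and 1 at ZT23 (Psmb10). The background of genes separated in this direction was 4.12% at ZT5, 1.42% at ZT11, 2.56% at ZT17 and 2.11% at ZT23. No member was separated in the opposite direction at any time. Whether the treatment difference itself changed with time was tested as an interaction over the 4 times, which called 0.36% of genes and 0 members by edgeR. At an unadjusted p under 0.05 it took 9.79% of genes (1659) and 2 members, B2m (edgeR, adjusted p = 0.459) and Psmb10 (edgeR, adjusted p = 0.497). A DESeq2 interaction test called 205 genes and 0 members. The order of times therefore stands as a description.

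The ZT11 values leaned on single libraries. Vancomycin ZT11 replicate 2 was the highest SPF library in the mean standardised level of the 10 members (1.664) and vancomycin ZT11 replicate 3 the lowest vancomycin library (-0.6443), so that the widest treatment difference came with the widest spread in a group. Without replicate 3, edgeR called 5 members and 109 genes at ZT11, in place of 0 and 0, and 7 members and 518 genes over the 4 times, in place of 3 and 137. Leaving out PBS ZT11 replicate 1 or vancomycin ZT11 replicate 2 gave a single called member at ZT11, Psmb10, beside 4 and 10 genes. Vancomycin libraries were above 0 on this standardised level in 12 of 16 cases and PBS libraries in 3 of 16.

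The standard counterparts of the 4 proteasome members had treatment means within 1 SD of each other in SPF colon, and none was called. Psmb5, whose place Psmb8 takes, averaged 54.9 ± 6.93 CPM with vancomycin and 52.7 ± 6.83 CPM with PBS, a log2 fold change of 0.06 (95% interval -0.07 to 0.19). Psmb6, the counterpart of Psmb9, averaged 93.2 ± 8.05 CPM with vancomycin and 93.5 ± 7.03 CPM with PBS, with a log2 fold change between -0.09 and 0.08 (95% interval). Psmb7, the counterpart of Psmb10, averaged 75.7 ± 4.96 CPM with vancomycin and 75.0 ± 4.8 CPM with PBS, a log2 fold change of 0.01 (95% interval -0.07 to 0.09). The interval of Psmb10, 0.24 to 0.49, lay wholly above that of Psmb7. Psme2, the partner of Psme1 in the activator cap, averaged 164.1 ± 29.1 CPM with vancomycin and 160.5 ± 28.1 CPM with PBS, with an interval of -0.08 to 0.15 against 0.18 to 0.41 for Psme1.

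Read as ratios of estimated counts within a library, Psmb9 to Psmb6 stood at 0.445 ± 0.147 with vancomycin and 0.311 ± 0.0645 with PBS. The ratio of Psmb10 to Psmb7 was 1.655 ± 0.289 with vancomycin and 1.293 ± 0.181 with PBS, and that of Psmb8 to Psmb5 was 1.924 ± 0.786 with vancomycin and 1.444 ± 0.526 with PBS (SD, n = 16 libraries each). Psme1 to Psme2 stood at 0.852 ± 0.191 with vancomycin and 0.701 ± 0.101 with PBS. All 4 mean ratios were higher with vancomycin, and the ranges of the libraries overlapped for each. Of 36 genes of the standard proteasome, its regulators and assembly factors, 0 were called by edgeR in SPF colon, 1 passed at an unadjusted p under 0.05, and the median log2 fold change was 0.0241.

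**Figure D2:**
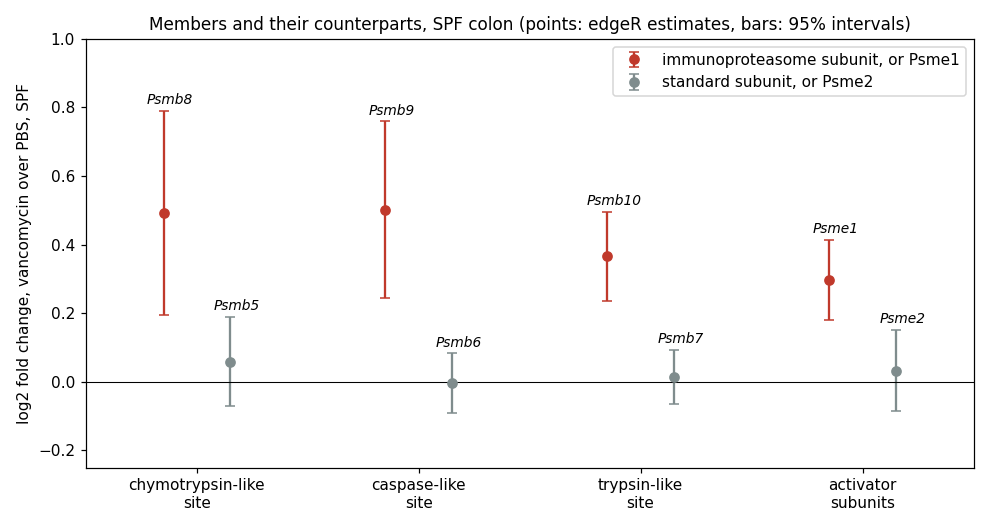
Log2 fold change of vancomycin over PBS in SPF colon (linear axis, mean over 4 times) for Psmb8, Psmb9, Psmb10 and Psme1, each beside its standard counterpart (Psmb5, Psmb6, Psmb7) or partner subunit (Psme2). Points are edgeR estimates and bars 95% intervals. The 4 members sit at 0.49, 0.50, 0.37 and 0.30, while the interval of each counterpart spans 0.

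Among 12 partners of the class I pathway outside the members, edgeR called 1 in SPF colon. Tapbpl, the tapasin-related peptide editor TAPBPR, averaged 54.0 ± 8.58 CPM with vancomycin and 41.3 ± 5.54 CPM with PBS, a log2 fold change of 0.38 ± 0.065 (edgeR, adjusted p = 0.0084). The partners' median log2 fold change was 0.0528. Nlrc5, the transactivator of class I promoters, averaged 14.1 ± 13.3 CPM with vancomycin (lowest 0.252, median 9.57, highest 53.0) and 6.73 ± 6.39 CPM with PBS (lowest 1.38, median 4.94, highest 26.2). Its log2 fold change was 1.14 ± 0.450 (edgeR, adjusted p = 0.219), and its libraries overlapped over most of their range. Of 18 class I-like and nonclassical chains, such as the H2-Q and H2-T genes, 0 were called, 10 passed at an unadjusted p under 0.05 (8 of them higher with vancomycin), and the median log2 fold change was 0.146.

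In the list of 21 interferon ligands, receptors and signalling genes, 20 were tested, the median log2 fold change was 0.124 and 7 passed at an unadjusted p under 0.05. Usp18, which removes ISG15 from proteins and dampens type I interferon receptors, averaged 8.91 ± 7.03 CPM with vancomycin and 4.06 ± 1.64 CPM with PBS, a log2 fold change of 1.04 ± 0.236 (edgeR, adjusted p = 0.0339). Among DESeq2, limma-trend, the replicate block and 5 marker-score covariates, only DESeq2 kept the call. Leaving out 1 library at a time, edgeR kept it in 19 of 32 refits. The adjusted p was 0.0776 with limma-trend, 0.0515 with the replicate block and between 0.0531 and 0.266 with a marker score as a covariate, highest with the T and NK cell score, where the log2 fold change was 0.68. Irf1, an interferon-induced factor that acts on class I and immunoproteasome genes, averaged 165 ± 32.5 CPM with vancomycin and 165.6 ± 25.2 CPM with PBS, with a 95% interval of -0.19 to 0.18 on the log2 scale. Ifng itself fell under the filter on low values, at 0.0904 ± 0.0931 CPM with vancomycin and 0.0264 ± 0.0517 CPM with PBS.

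Markers of T and NK cells, B cells and macrophages mostly had positive estimates in the same SPF libraries, although edgeR called 1 of the 59. All 25 T and NK cell markers had a positive log2 fold change (median 0.90), and 17 passed at an unadjusted p under 0.05. Of these, edgeR called 1, Cd3d, a chain of the T cell receptor complex, at 1.92 ± 0.455 (edgeR, adjusted p = 0.0428). Its adjusted p was 0.122 with limma-trend and between 0.0825 and 0.159 with a marker score as a covariate in edgeR. The Cd3d call stayed in 10 of 32 edgeR refits that each left out 1 library. Summed T and NK cell markers lay between 26.1 and 778.3 CPM in vancomycin libraries (median 195.4) and between 20.4 and 496.5 CPM in PBS libraries (median 70.0), and no marker was at 0 throughout. The 15 B cell and follicle markers were also all positive (median 0.634, 0 called, 1 at an unadjusted p under 0.05), as were 18 of 19 macrophage and dendritic cell markers (median 0.232, 0 called, 4 unadjusted). The unadjusted counts of these last lists were below and near the background of 16.2% of genes. Median log2 fold changes were -0.192 for 14 colonocyte and crypt markers, -0.102 for 9 smooth muscle markers, -0.305 for 9 plasma cell markers and -0.291 for 10 stromal and adipose markers, with 0 called by edgeR in each and 3, 2, 3 and 4 at an unadjusted p under 0.05.

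Across the 32 SPF libraries, the members' mean standardised level and that of the T and NK cell markers correlated at r = 0.664, a description over libraries that share the same RNA and depth. With the T and NK cell score added to the model as a covariate, edgeR called 1 member in place of 3, and 52 genes in place of 137. Psmb10 then stood at a log2 fold change of 0.41 (adjusted p = 0.0046), H2-D1 at 0.27 (adjusted p = 0.101) and Psme1 at 0.25 (adjusted p = 0.0694). All 10 estimates stayed positive and their median was 0.21. With scores of macrophage and dendritic cells, of B cells, of colon position or of Y-linked genes in its place, 3 members were called each time. H2-D1 then lay close to the threshold, with edgeR adjusted p of 0.0481, 0.0490, 0.0390 and 0.04985 in that order.

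**Figure D3:**
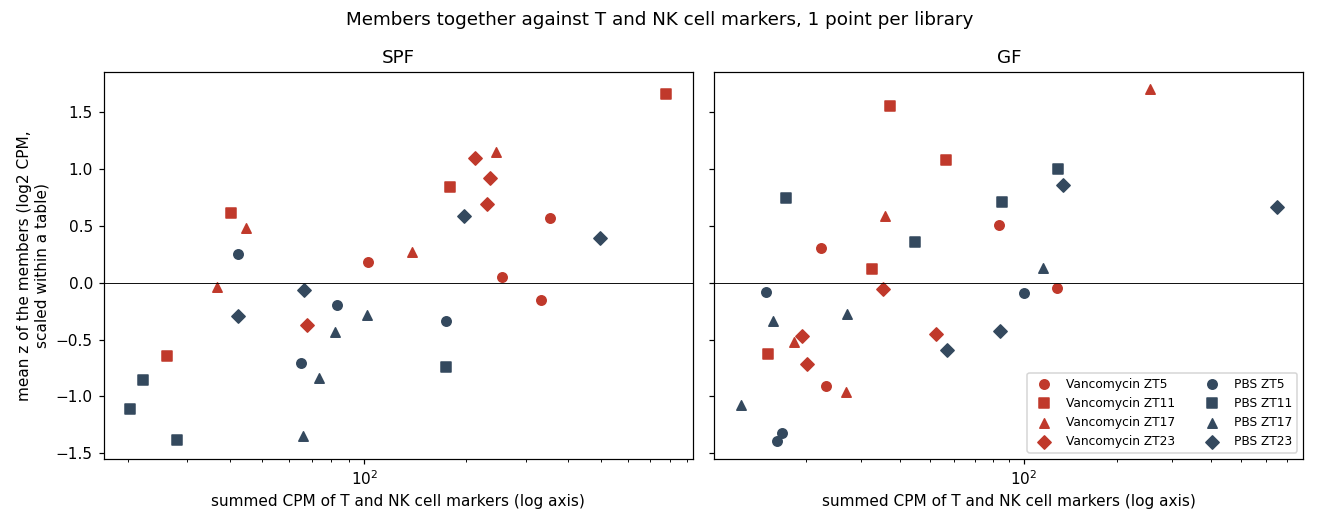
Mean standardised log2 CPM of the 10 members (vertical axis, z units within a table) against the summed CPM of T and NK cell markers (log axis), with SPF libraries left and GF libraries right. Each point is 1 library, red for vancomycin and dark blue for PBS, with a symbol for each ZT. In SPF colon 12 of 16 vancomycin libraries and 3 of 16 PBS libraries lay above 0, against 7 of 16 and 7 of 16 in GF colon.

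In GF colon, which was tabulated separately, no member was called for vancomycin against PBS. The members' log2 fold changes averaged over the 4 times ran between -0.06 (H2-K1) and 0.29 (Psmb9), with a median of 0.0784 against 0.00669 over all genes and 8 of 10 positive. By edgeR 0% of the 16951 genes tested and 0 members were called; 3.96% of genes (672) and 0 members passed at an unadjusted p under 0.05. With DESeq2, 5 genes and 0 members were called. H2-D1 averaged 1700 ± 439 CPM with vancomycin (lowest 943.6, median 1660, highest 2626) and 1742 ± 363.5 CPM with PBS (lowest 1339, median 1647, highest 2388), with a 95% interval of -0.25 to 0.20 for the log2 fold change. Psmb10 averaged 132.8 ± 35.5 CPM with vancomycin and 122.7 ± 28 CPM with PBS (interval -0.12 to 0.33), and Psme1 122.5 ± 28.8 CPM with vancomycin and 118 ± 22.5 CPM with PBS (interval -0.14 to 0.25). Treatments overlapped over most of their range for these genes. The upper bounds of 0.20, 0.33 and 0.25 lay under the SPF estimates of 0.34, 0.37 and 0.30 for H2-D1, Psmb10 and Psme1, and the difference between the tables has its own test below.

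The other GF members showed the same picture with wider errors. H2-K1 averaged 676.8 ± 203.9 CPM with vancomycin and 712.4 ± 155.5 CPM with PBS, and B2m 609.5 ± 190.1 CPM with vancomycin and 569.7 ± 150.9 CPM with PBS. Tap1 stood at 41.2 ± 24.1 CPM with vancomycin and 41.0 ± 21 CPM with PBS, Tap2 at 81.5 ± 19.6 CPM with vancomycin and 76.4 ± 20.9 CPM with PBS, and Tapbp at 308.6 ± 62.8 CPM with vancomycin and 294.5 ± 50.2 CPM with PBS. Psmb9 averaged 30.2 ± 14.3 CPM with vancomycin and 25.1 ± 10.1 CPM with PBS (SD, n = 16 libraries each). Psmb8 was the most variable member in GF colon, at 58.3 ± 40.5 CPM with vancomycin (lowest 20.01, median 44.2, highest 158.6) and 51.9 ± 33.1 CPM with PBS (lowest 7.25, median 50.5, highest 111.6).

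At single times in GF colon, edgeR called 0% of genes and 0 members at each of ZT5, ZT11, ZT17 and ZT23, where 606, 832, 757 and 2050 genes passed without adjustment and DESeq2 called 9, 8, 13 and 55 genes and 0 members. The members' medians were 0.282 at ZT5, 0.0411 at ZT11, 0.27 at ZT17 and -0.284 at ZT23, where 9 of 10 were negative. At ZT23 the T and NK cell markers had a median of -2.55 (0 of 23 positive), and with their score as a covariate the members' ZT23 median turned to 0.161 with 7 of 10 positive. Psmb8 at ZT23 had 20.01, 31.3, 50.9 and 27.4 CPM in vancomycin GF libraries and 37.7, 111.6, 103.4 and 58.1 CPM in PBS GF libraries. These values overlapped, and the log2 fold change was -1.26 ± 0.6 (edgeR, adjusted p = 0.408). Vancomycin libraries lay above all PBS libraries for 0 members at every GF time, beside backgrounds of 0.684% of genes at ZT5, 1.95% at ZT11, 1.11% at ZT17 and 1.82% at ZT23. The interaction of treatment with time called 0% of genes and 0 members by edgeR (1405 genes unadjusted), and DESeq2 called 9 genes and 0 members.

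**Figure D4:**
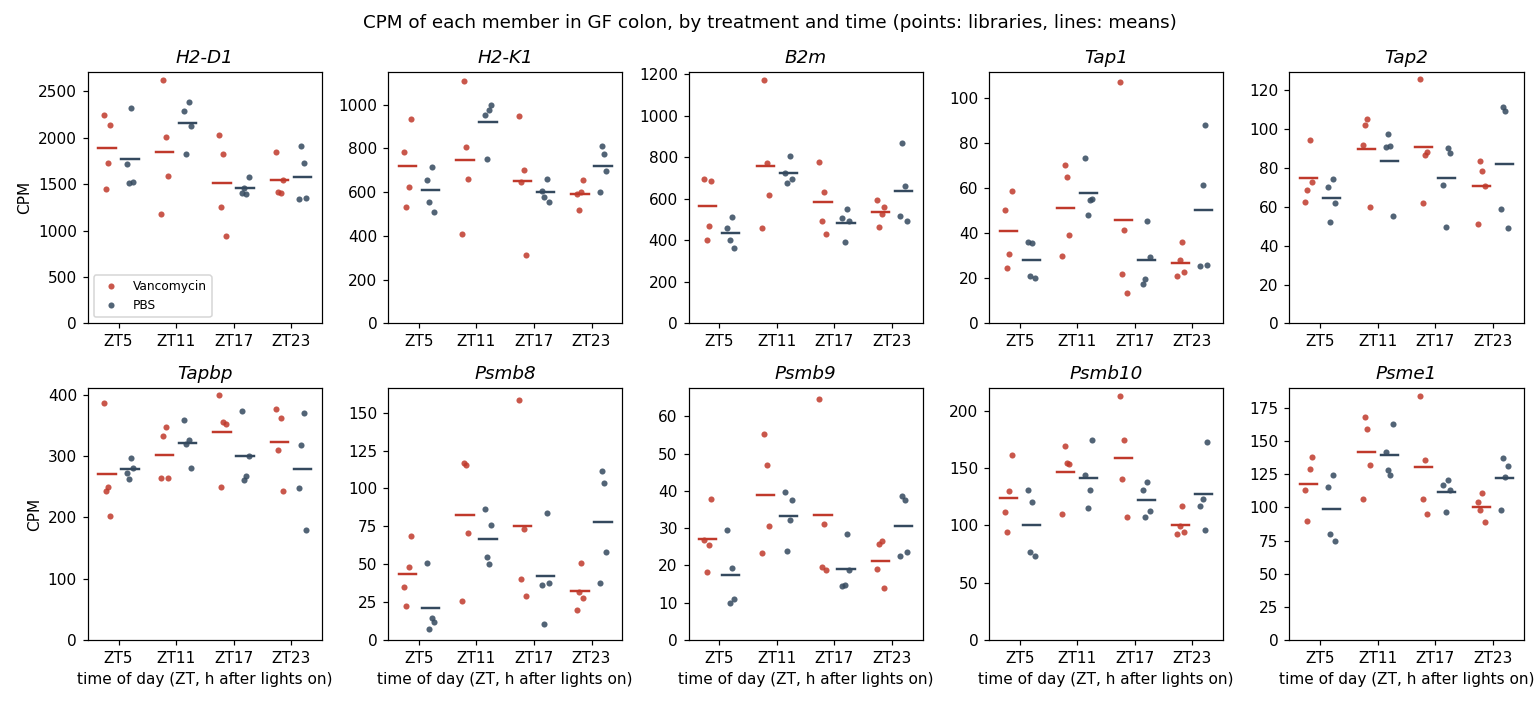
CPM (linear axis from 0) of each of the 10 members in GF colon at ZT5, ZT11, ZT17 and ZT23, with vancomycin left and PBS right at each time. Points are libraries (n = 4 per group) and short lines are group means. Treatments overlapped for every member at every time, and Psmb8 libraries ranged between 7.25 and 158.6 CPM.

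The immune markers of the GF libraries differed in direction between times. Averaged over the 4 times, the median log2 fold change of vancomycin over PBS was -0.527 for 23 tested T and NK cell markers (4 positive), -1.05 for 15 B cell and follicle markers (0 positive) and -0.101 for 19 macrophage and dendritic cell markers, with 0 called and 0 at an unadjusted p under 0.05 in each by edgeR. By time, the T and NK cell medians were 1.01 at ZT5 (21 of 23 positive), -0.683 at ZT11 (3 positive), 0.907 at ZT17 (21 positive) and -2.55 at ZT23 (0 positive). The B cell medians were 0.657, -1.52, 0.917 and -4.35 at the same times, with 14, 0, 15 and 0 of 15 positive. At ZT23, 19 of 23 T and NK cell markers and 15 of 15 B cell markers passed at an unadjusted p under 0.05, beside 12.1% of genes, and edgeR called 0. Summed T and NK cell markers lay between 15.1 and 255 CPM with vancomycin and between 12.4 and 648.7 CPM with PBS. GF libraries also differed in markers of colon position. The median log2 fold change of 7 proximal Hox genes was 1.18, with 0 called and 4 at an unadjusted p under 0.05, beside 3.96% of genes. By time it was 1.8 at ZT5, 0.952 at ZT11, -1.03 at ZT17 and 2.75 at ZT23. The median of 6 tested distal Hox genes over the 4 times was also positive, at 0.364 (4 positive), with 0 called and 0 unadjusted. With these scores as covariates edgeR still called 0 members over the 4 times, where the members' median was 0.132 with the T and NK cell score, 0.133 with the B cell score, 0.0864 with the macrophage and dendritic cell score, 0.0869 with colon position and 0.0808 with the Y-linked score. At ZT23, where it was -0.284, the median was 0.161, 0.0569, -0.0546, -0.115 and -0.246 with the same scores, so the direction turned with the T and NK cell and the B cell scores.

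Set side by side, levels of the members in the SPF and GF tables were of the same order, and no test was made between tables that were deposited apart. Within each table the order of the 8 group means was read for each member. In SPF colon the top 4 groups were all vancomycin groups for H2-D1 and Psme1, 3 of 4 for H2-K1, B2m, Tap1, Tap2, Psmb8, Psmb9 and Psmb10, and 2 of 4 for Tapbp. In GF colon vancomycin groups held 2 of the top 4 places for each member except Tapbp, with 3. Of the 7 pairs of neighbours in such an order, at most 2 differed by more than their spread. For B2m in SPF colon these were vancomycin ZT23 over vancomycin ZT17 and vancomycin ZT5 over PBS ZT11, and for H2-D1 vancomycin ZT5 over vancomycin ZT23.

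Whether the vancomycin difference was larger in SPF than in GF colon was tested with the difference of the 2 log2 fold changes in all 64 libraries. It was positive for 9 of 10 members with a median of 0.25, against -0.0135 over 16604 genes. By edgeR 0% of genes and 0 members were called, and DESeq2 called 16 genes and 0 members. At an unadjusted p under 0.05, 9.94% of genes (1651) and 4 members passed. These were H2-D1 at 0.37 ± 0.132 (edgeR, adjusted p = 0.422), H2-K1 at 0.36 ± 0.151 (edgeR, adjusted p = 0.448), Psme1 at 0.24 ± 0.111 (edgeR, adjusted p = 0.478) and Psmb10 at 0.26 ± 0.126 (edgeR, adjusted p = 0.492). So the SPF and GF effects were not shown to differ for any member. The same difference had a median of 1.51 for T and NK cell markers (23 of 23 positive, 13 unadjusted) and 1.7 for B cell markers (15 of 15 positive, 9 unadjusted), with 0 called. With the T and NK cell score as a covariate, the members' median difference was 0.0328 and 5 of 10 were positive.

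**Figure D5:**
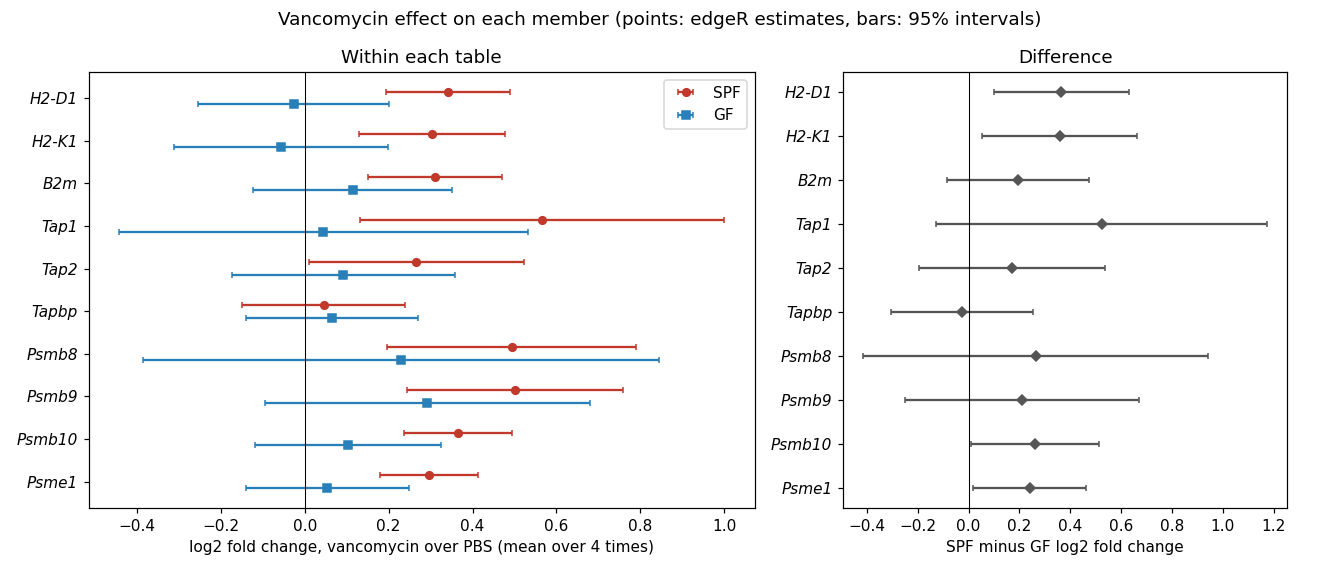
Left, log2 fold change of vancomycin over PBS averaged over 4 times (linear axis) for each member in SPF colon (red) and GF colon (blue). Right, SPF minus GF difference of these values; points are edgeR estimates and bars 95% intervals. SPF estimates lie between 0.04 and 0.57 and GF estimates between -0.06 and 0.29, and the intervals of the difference exclude 0 for H2-D1, H2-K1, Psmb10 and Psme1 before adjustment.

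Time of day was tested within each treatment. In vancomycin SPF libraries, 8.2% of genes were called and 1 of the 10 members, Psmb10, whose group means were 100.4 ± 7.9 CPM at ZT5, 127 ± 21.9 at ZT11, 126.3 ± 18.8 at ZT17 and 147.2 ± 16.6 at ZT23 (edgeR, adjusted p = 0.0318). A share of 1 in 10 is close to this background. The call was lost when any of 6 single libraries was left out (vancomycin ZT23 replicate 1, 2 or 4, or vancomycin ZT5 replicate 2, 3 or 4). In PBS SPF libraries, 8.9% of genes and 0 members were called by edgeR, 4348 genes and 5 members (B2m, Tap2, Tapbp, Psmb8 and Psmb10) passed at an unadjusted p under 0.05. With DESeq2, 2 members were called, Tapbp and Psmb8, beside 2639 genes in all, so that this share too is near its background. Psmb8 there averaged 81.2 ± 15.2 CPM at ZT5, 52.7 ± 16.6 at ZT11, 62.0 ± 11 at ZT17 and 104.2 ± 21.9 at ZT23. Tapbp averaged 318.8 ± 79.6, 225.1 ± 13.7, 311.8 ± 79.1 and 359.4 ± 25.6 CPM at the same times. Both were lowest at ZT11 and highest at ZT23. For time of day edgeR also called 9 of 9 smooth muscle markers in each SPF treatment. Their median summed CPM with PBS was 13960 at ZT5, 18960 at ZT11, 12290 at ZT17 and 7349 at ZT23. With vancomycin it was 9122, 19360, 11660 and 7997 at the same times. Whether the members' values by time follow the muscle content of the libraries was not tested.

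In GF colon, 0.142% of genes were called for time of day with vancomycin and 0.142% with PBS, 24 genes each, and 0 members in both by edgeR. At an unadjusted p under 0.05, 1612 genes and 1 member (Psmb10) passed with vancomycin and 2491 genes and 3 members (B2m, Psmb8 and Psmb9) with PBS; DESeq2 called 0 members in either. The widest range of group means was that of Psmb8 in PBS GF libraries, with 21.1 ± 20.1 CPM at ZT5 and 77.7 ± 35.5 CPM at ZT23, a ratio of 3.68. At ZT5, PBS replicate 1 stood at 51.0 CPM while the other 3 libraries had 7.25, 14.5 and 11.7 CPM.

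The members varied together across libraries. Over the 32 SPF libraries, the 45 pairs of members had Pearson correlations of log2 CPM between 0.153 and 0.918 (median 0.49). After removing group means the median was 0.368. Tap1 with Psmb8 (0.918) and H2-D1 with H2-K1 (0.913) were the closest pairs, and Tapbp was the loosest member (median 0.218 with the other 9). Over the 32 GF libraries the 45 correlations lay between 0.0158 and 0.902 (median 0.622; 0.67 without group means), led by Psmb8 with Psmb9 (0.902). Neighbouring genes and genes that share antisense stretches are among these pairs, and all pairs share library depth and cell makeup. Psmb5, Psmb6 and Psmb7 correlated with the members' mean at 0.0355, -0.0981 and -0.125 in SPF colon. After removing group means these values were -0.456, -0.49 and -0.44. In GF colon they were -0.155, -0.285 and -0.452, and -0.0876, -0.216 and -0.308 after removing group means.

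Among the genes outside the member list whose log2 CPM most resembled the members' mean standardised level in SPF colon, among 16928 genes ranked over 32 libraries, were Socs1 (r = 0.838), Igtp (0.822), Ptk2b (0.82) and Gbp7 (0.815). In GF libraries the same genes had r of 0.684, 0.819, 0.587 and 0.788. In GF colon, among 16941 genes, the most similar were Sp100 (0.917), H2-Q4 (0.888), Rnf213 (0.868), Dtx3l (0.865) and Zbp1 (0.851), with r of 0.757, 0.67, 0.695, 0.665 and 0.693 in SPF libraries. Nlrc5 reached 0.703 in SPF colon and 0.736 in GF colon, and Irf1 0.213 in SPF colon and 0.714 in GF colon. These values describe libraries that share depth and cell makeup.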

How the data were processed

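Poly(A) RNA of flash-frozen whole colon was sequenced with single-end reads of 75 cycles, per the labels. Tools named in the submitters' processing notes, without role or order, are Salmon, cutadapt 3.5 and Trim Galore 0.6.2, and the build is GRCm39. No source used here gives the annotation or the use of strand. The deposited tables, 1 for SPF and 1 for GF, hold estimated counts per gene and library, with values that need not be whole. They were rounded to whole numbers for the tests, 49 genes without a symbol were kept under their IDs, and 0 columns belonged to other samples.

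Genes with at least 10 estimated counts in at least 4 libraries of a table were tested with edgeR 4.0.16 (quasi-likelihood F test, TMM scaling, library size from the tested genes, 1 mean per group of treatment and time, Benjamini-Hochberg adjustment over all genes tested, threshold 0.05) in R 4.3.3. The SPF minus GF difference used all 64 libraries and the genes tested in both tables. CPM values use the same scaled library sizes, z values were taken within a table, and levels per kb use the longest transcript in the consensus coding set (GENCODE, GRCm38). Standard errors and 95% intervals come from the fitted model and cover the spread between libraries. Alternatives were DESeq2 1.42.0, limma 3.58.1 (limma-trend, prior count 2), other scalings, no filter, marker scores as covariates, a replicate block and leaving out each library. Library totals over all genes were added after seeing the data. The tests were checked on simulated data for the vancomycin effect over 4 times. A log2 change of 0.35 was called in 18% of 100 changed genes with the SPF spread and in 6% with the GF spread. A log2 change of 1 was called in 93% and 76%. The changed genes were drawn at random among well-counted genes, so these shares are not for the members' own spread. The count of 0 called members in GF colon thus does not by itself show that changes near 0.35 were absent. For H2-D1, Psmb10 and Psme1 the unadjusted 95% intervals given with the GF results ended under 0.35.

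The members and gene lists were chosen with earlier results of these data known. Named genes are the 10 members, listed genes past the threshold for the vancomycin effect or its SPF minus GF difference, the proteasome counterparts, Psme2, Nlrc5, Ifng, Irf1, and the 5 genes per table most like the members; a gene the rule names is not reported here. H2-Q7, H2-Q1, Gm7776 and Gm19412 are named for shared sequence. RefSeq promoters and motif shares come from the GRCm38.p6 tables.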

Additional observations from a re-analysis of the deposited data

Results flagged for a closer look

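Of the 160 sets of 4 libraries (10 members in 16 groups), 4 held a library whose gap to the nearest of the others exceeded the share of the group's range set by Dixon's 95% critical value for 4 samples. That is 2.5% of sets, where chance gives about 1 in 20. H2-K1, a class I heavy chain, stood at 915.2 CPM in SPF vancomycin ZT17 replicate 2, above 666.3 to 701 CPM in the other 3 libraries. The same gene stood at 656.2 CPM in SPF PBS ZT11 replicate 1, above 531.5 to 546 CPM in the rest of its group. Psme1, the activator subunit, stood at 150.2 CPM in SPF vancomycin ZT5 replicate 4, above 125.6 to 127.3 CPM in the other 3 libraries. In GF PBS ZT11 replicate 4, the transporter gene Tap2 stood at 55.4 CPM, below 91.05 to 97.4 CPM in its group.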

How the results depend on the processing

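For the SPF vancomycin effect over 4 times, where 3 members were called, DESeq2 called 7, the replicate block 5 and the T and NK cell score as a covariate 1, and leaving out 1 library gave 3 to 7. H2-D1, Psmb10 and Psme1 stayed called in 32 of 32 such refits, with edgeR adjusted p of at most 0.0493, 0.0216 and 0.0412. The count was 7 without vancomycin ZT11 replicate 3 and 5 without PBS ZT23 replicate 4, PBS ZT11 replicate 2 or vancomycin ZT5 replicate 1. At SPF ZT11, where 0 were called, DESeq2 called 4, the T and NK cell covariate 1, and leaving out 1 library gave 0 to 5. For time of day, DESeq2 called 2 in place of 0 with SPF PBS, and leaving out 1 library gave 0 to 1 there and 0 to 2, in place of 1, with SPF vancomycin. The cause was not tested. Members called in the other comparisons stayed at 0 under each alternative run, and no member's SPF estimate over the 4 times changed sign in 440 of 440 values. At single times signs did turn: the SPF ZT5 median, 0.162 with 8 members positive, became -0.0834 (4 positive) with the T and NK cell and -0.0284 (4 positive) with the B cell covariate, and the GF ZT23 median, -0.284, became 0.161 and 0.0569 with them. Same-numbered libraries deviated together (correlation over 0.1) in 5 of 16 pairs in each table. Their median correlation was 0.0283 in SPF and -0.02465 in GF colon, against -0.000235 and -0.007465 for differently numbered pairs. Correlations of single libraries cannot settle whether the numbers pair them. The block moved no other member count.

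Over all genes, the 137 called in SPF colon over 4 times became 493 with DESeq2, 80 with no filter, 52 with the T and NK cell covariate, 55 with the Y-linked, 84 with the B cell and 89 with the colon position covariate, and 47 (without vancomycin ZT5 replicate 4) to 518 (without vancomycin ZT11 replicate 3). DESeq2 called 240 in place of 14 at ZT5, 102 in place of 0 at ZT11, 147 in place of 54 at ZT17, 42 in place of 0 at ZT23 and 205 in place of 61 for treatment by time. It called 2254 in place of 1389 for time of day with SPF vancomycin and 2639 in place of 1507 with SPF PBS, 179 and 403 in place of 24 each in GF colon, and 16 in place of 0 for SPF minus GF. Depth limits the precision of genes such as Ifng, and groups of 4 libraries limit the single times.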
